A study of Sus scrofa with 6 samples.

Results

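The genes described here encode the proteins that fold, inspect and discard proteins in the endoplasmic reticulum (ER), and the signalling proteins that adjust this machinery under load. They were taken from a list of 30 gene symbols with known roles in ER stress and folding. A table of gene names matched 26 of the 30 to 1 Ensembl identifier each, of 25880 identifiers in the count files. ATF4 and DDIT3, transcription factors of the stress response, SDF2L1, a folding cofactor, and DERL1, a channel protein of ER degradation, were matched to none and are not analysed here.

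The malathion group held porcine (Sus scrofa) oocytes matured in vitro in medium with malathion at 1 mM, diluted from a 0.75 M stock in DMSO. The control oocytes were matured without malathion, and the labels do not say whether their medium held DMSO. Oocytes of both groups were labelled as MII, the metaphase arrest of a mature egg, and had come from cumulus-enclosed oocytes aspirated from slaughterhouse ovaries, with 3 libraries in each group. Malathion is an organophosphate insecticide that blocks cholinesterases after its conversion to malaoxon. The labels give neither the number of oocytes in a library nor the animals behind it, so p-values measure only the spread between libraries, which may be technical.

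The unfolded protein response has 3 arms, each started by a sensor in the ER membrane. The kinase PERK slows translation by phosphorylating eIF2 and raises output of ATF4, the nuclease IRE1 splices the mRNA of XBP1, and ATF6 is cut in the Golgi into a transcription factor. Their targets include the chaperones and disulfide isomerases of the ER lumen and the apparatus that sends misfolded proteins to the proteasome. In an oocyte the ER also stores the calcium released at fertilization. A fully grown oocyte transcribes little, so mRNA levels at MII chiefly reflect stored transcripts, and neither the splicing of XBP1 nor the activation of a sensor can be read from gene counts.

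Counts given to genes summed to between 25816040 and 42312341 in a library, and levels are given as CPM, counts scaled to 1000000 of that sum. Reads were not collapsed by molecular identifiers, so intervals cover counting error only; 95% Wilson intervals were at most ± 8.23 CPM for any of the 26 genes. The libraries were unequal. Each replicate 3 library detected far fewer genes, 8492 for malathion and 8344 for control, against 12211 to 14707 in the other 4. The 9 oocyte markers summed to 108696, 78746 and 4803 CPM in malathion replicates 1, 2 and 3, and to 103647, 39160 and 5492 CPM in control replicates 1, 2 and 3. BTG4 and DNMT1 held most of this sum except in malathion replicate 3, and single markers differed from it. ZP2 (2158 CPM) and MOS (1458 CPM) were highest in malathion replicate 3, and GDF9 (2650 CPM) and ZP3 (998 CPM) in control replicate 2. The 12 matched markers of the follicle cells around an oocyte (cumulus and granulosa) summed to 696, 728 and 66.2 CPM in the malathion libraries. In the control libraries they summed to 654, 425 and 37.0 CPM. VCAN and KITLG held most of this sum in every library. CYP11A1 was uneven, at 18.21, 81.6 and 0.02363 CPM in the malathion libraries and 22.1, 0.5903 and 0.7125 CPM in the control libraries. STAR (24.99 CPM) and INHBA (17.43 CPM) were also highest in malathion replicate 2. HAS2, PTX3, FSHR, TNFAIP6, INHA and GJA1 were at no more than 3.78 CPM in any library, and AMH had 0 counts in all 6. Theca, stroma and blood markers summed to at most 22.6 CPM. The part of these library differences in the results below was not tested.

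The 26 genes together held 1585, 1805 and 448 CPM in malathion replicates 1, 2 and 3, against 1620, 2333 and 690 CPM in control replicates 1, 2 and 3. The groups overlapped, and in both the replicate 3 library was lowest. More than any other gene, HYOU1 made up the sum in malathion replicate 3 (239 CPM) and CANX that in control replicate 3 (468 CPM). In bulk libraries, fewer cells of a type and less RNA per cell cannot be told apart. All 26 genes had counts in malathion replicates 1 and 2 and in control replicates 1 and 2. Malathion replicate 3 held counts for 20 of them and control replicate 3 for 18. Genes at 0 were 23.1% of the list in malathion replicate 3 and 30.8% in control replicate 3, beside 26.7% and 28.7% of all tested genes in the same libraries, so the dropout was near that of genes in general. By counting error alone, a count of 0 allows a level of up to 0.0709 CPM in malathion replicate 3 and 0.102 CPM in control replicate 3. Loss of a transcript before sequencing is not covered by these bounds. Folding genes supplied 79.6%, 75.9% and 75.6% of the summed CPM in the malathion and 80.4%, 65.1% and 91.5% in the control libraries. The shares in the replicate 3 libraries rest largely on HYOU1 and CANX, both folding genes.

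**Figure D1:**
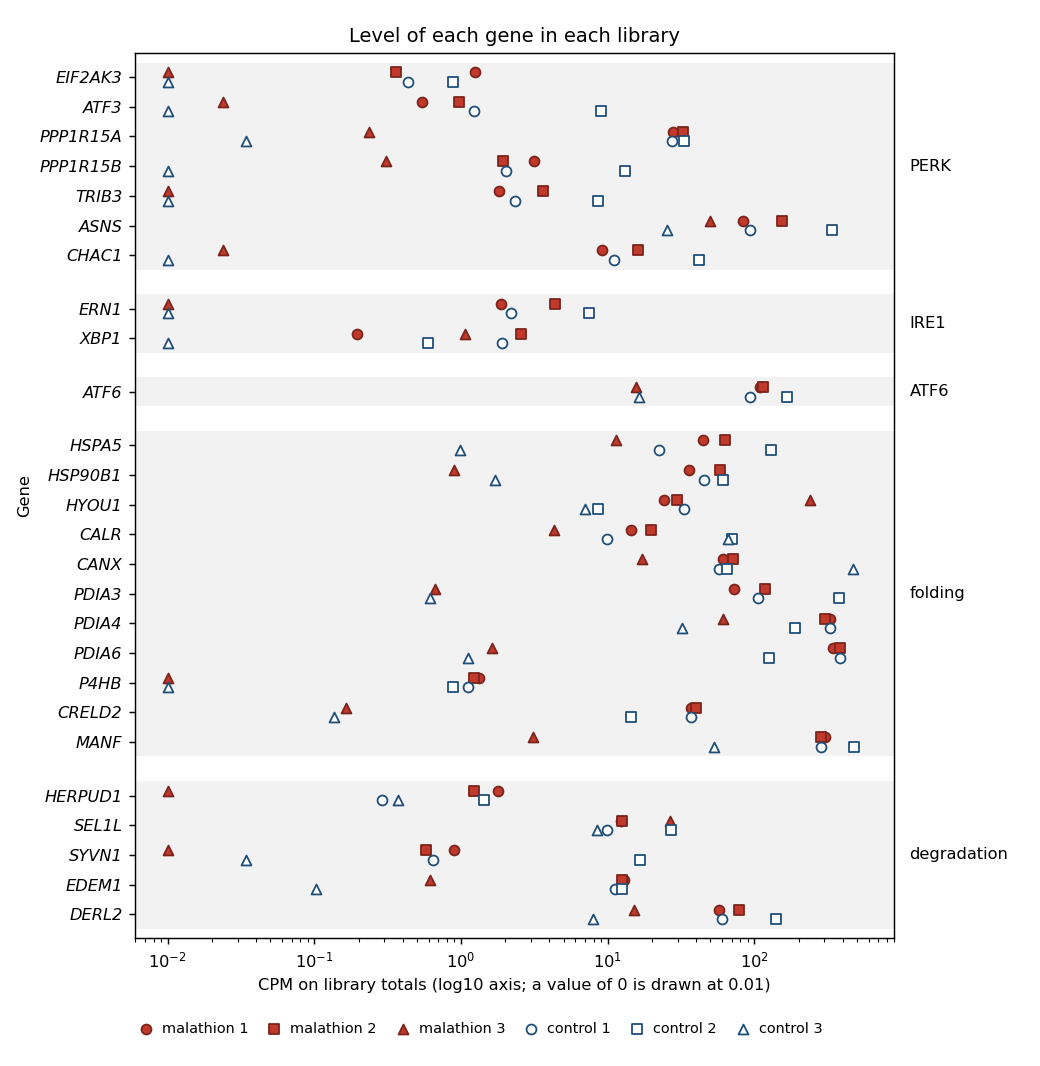
CPM of the 26 genes (log10 axis, 0 drawn at 0.01) in the 3 malathion libraries (filled) and the 3 control libraries (open), grouped by arm. Replicate 3 libraries (triangles) lie lowest for most genes, with HYOU1 in malathion replicate 3 (239 CPM) and CANX in control replicate 3 (468 CPM) far to the right of the other libraries.

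Malathion was compared with control to ask how the insecticide affects mRNA stored in the oocyte, here for the genes of ER folding and its stress response. None of the 26 genes passed edgeR's quasi-likelihood test (smallest adjusted p 0.99998), beside 0 of 10678 genes tested, or 0%. None had an unadjusted p under 0.05 (smallest 0.1996), against 110 of all tested genes, or 1.03%. The fitted log2 fold change, malathion minus control, was above 0 for 11 of the 26 and below 0 for 15, with a median of −0.29. Over all tested genes 3598 were above 0 and 7080 below, with a median of −0.33, so the list lay 0.04 above genes in general. With TMM factors, which rescale libraries by their composition, the median was 0.17 for the list and −0.08 for all tested genes, a distance of 0.25. The groups' CPM did not overlap for 0 of the 26 genes, beside 0.749% of all tested genes. Over all tested genes, the median half-width of a 95% interval was 4.36 on the log2 scale. An interval of that width excludes 0 only for a fitted log2 fold change beyond 4.36 in either direction, so large changes could go undetected.

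The PERK arm was split 2 above 0 and 5 below. EIF2AK3, which encodes PERK itself, stood at 1.24, 0.360 and 0 CPM in malathion replicates 1, 2 and 3, and at 0.432, 0.885 and 0 CPM in control replicates 1, 2 and 3. The sensor was thus at the edge of detection, with at most 32 counts in any library. ATF3 (ENSSSCG00000015595), a stress-induced transcription factor, stood at 0.542, 0.972 and 0.0236 CPM in the malathion libraries and 1.22, 9.04 and 0 CPM in the control libraries. Its level in control replicate 2 exceeded that of every other library. The log2 fold change was −2.73 ± 2.76 (SE, adjusted p = 0.99998, edgeR), and −0.25 without control replicate 2. PPP1R15B (ENSSSCG00000015282), the constitutive phosphatase subunit that removes the PERK mark from eIF2, stood at 3.14, 1.94 and 0.307 CPM in the malathion libraries and 2.02, 13.2 and 0 CPM in the control libraries. Its log2 fold change of −1.49 ± 2.54 (SE, adjusted p = 0.99998, edgeR) turned to 0.83 without control replicate 2.

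PPP1R15A, the stress-induced partner of the same phosphatase, behaved unlike PPP1R15B. It stood at 28.0, 32.7 and 0.236 CPM in the malathion libraries and 27.3, 33.3 and 0.0339 CPM in the control libraries. Replicates 1 and 2 of both groups lay within 1.22-fold of each other, and in both replicate 3 libraries the transcript was close to 0, with 10 counts after malathion and 1 in the control. ASNS, the enzyme that makes asparagine and a classic target of ATF4, was the PERK-arm gene best preserved in the replicate 3 libraries. It stood at 83.2, 153 and 50.1 CPM in the malathion libraries and 92.8, 336 and 25.5 CPM in the control libraries. CHAC1, a glutathione-degrading enzyme induced through ATF4, stood at 9.14, 16.1 and 0.0236 CPM after malathion and 11.0, 42.2 and 0 CPM in controls. TRIB3, a pseudokinase that damps ATF4 signalling, stood at 1.82, 3.64 and 0 CPM after malathion and 2.34, 8.56 and 0 CPM in controls. Among replicates 1 and 2, ASNS, CHAC1 and TRIB3 were highest in control replicate 2, then in malathion replicate 2, control replicate 1 and malathion replicate 1. ERN1, HSP90B1, PDIA3 and DERL2 had that order too, making 7 of the 26 genes (26.9%), beside 20.8% of all tested genes. None of these values separates the groups.

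The IRE1 arm held 2 of the genes, 1 with a fitted fold change above 0 and 1 below. ERN1 (ENSSSCG00000039909), which encodes IRE1, stood at 1.86, 4.39 and 0 CPM in the malathion libraries and 2.20, 7.49 and 0 CPM in the control libraries. Its log2 fold change was −0.63 ± 2.55 (SE, adjusted p = 0.99998, edgeR), and 0.92 without control replicate 2. XBP1 (ENSSSCG00000030996), whose mRNA IRE1 splices, stood at 0.194, 2.56 and 1.06 CPM in the malathion libraries and 1.91, 0.590 and 0 CPM in the control libraries. These levels rest on 5, 71 and 45 counts after malathion and 53, 16 and 0 counts in controls, and they followed no order shared by the other genes. The log2 fold change was 0.61 ± 2.69 (SE, adjusted p = 0.99998, edgeR), −0.40 without malathion replicate 2, 2.09 without control replicate 1 and 2.98 with TMM factors. DESeq2 gave no p for HYOU1, CALR, CANX, SEL1L and SYVN1. Of the 21 genes with one there, XBP1 alone had an unadjusted p under 0.05, beside 2.37% of the 9559 genes with a p, and 0 were called after adjustment.

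ATF6 (ENSSSCG00000006346), the third sensor, stood at 109, 115 and 15.7 CPM in malathion replicates 1, 2 and 3, and at 94.0, 167 and 16.3 CPM in control replicates 1, 2 and 3. It was among the steadier transcripts of the list, and the sensor gene with the most counts in every library (481 to 4517), whereas EIF2AK3 and ERN1 had at most 203. Gene length was not taken into account, so these counts do not rank the sensors per transcript. The log2 fold change of ATF6 was −0.21 ± 1.87 (SE, adjusted p = 0.99998, edgeR). The sign turned without control replicate 2 (0.53), and the value was 0.02 with TMM factors.

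Among the 11 folding genes, 5 fitted fold changes were above 0 and 6 below. HSPA5, the ER HSP70 chaperone BiP that holds the sensors inactive and is a standard readout of ER stress, stood at 44.4, 63.3 and 11.3 CPM in malathion replicates 1, 2 and 3. In control replicates 1, 2 and 3 it stood at 22.3, 130 and 0.984 CPM, so the malathion libraries lay inside the control range. Malathion replicate 1 was above control replicate 1 and malathion replicate 3 above control replicate 3, while malathion replicate 2 was below control replicate 2. The log2 fold change was −0.37, and it turned to 1.24 with TMM factors, to 1.10 with the replicate number as a block and to 1.76 without control replicate 2. Without control replicate 2 and both replicate 3 libraries it was 1.27 ± 0.42 (SE, unadjusted p = 0.00656, adjusted p = 0.9998, edgeR), the only gene of the 26 with an unadjusted p under 0.05 there, beside 0.626% of all tested genes. That comparison sets 2 malathion libraries against 1 control library, and it did not pass the adjustment.

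HYOU1 (ENSSSCG00000015106), the large ER chaperone that exchanges nucleotide on BiP, had the highest fitted fold change of the list. It stood at 24.1, 29.8 and 239 CPM in the malathion libraries and 33.0, 8.63 and 6.99 CPM in the control libraries. Malathion replicate 3 alone held 10107 counts of it, against at most 918 in any other library. The log2 fold change was 2.59 ± 2.02 (SE, adjusted p = 0.99998, edgeR), 0.73 without malathion replicate 3 and −0.29 without control replicate 2 and both replicate 3 libraries. CANX (ENSSSCG00000014020), the membrane-bound lectin chaperone calnexin, had the mirror pattern. It stood at 61.2, 70.9 and 17.2 CPM in the malathion libraries and 57.4, 64.7 and 468 CPM in the control libraries, with 13806 counts in control replicate 3. Its log2 fold change was −1.98 ± 1.91 (SE, adjusted p = 0.99998, edgeR), −0.29 without control replicate 3 and 0.11 without both replicate 3 libraries. In replicates 1 and 2, the 4 CANX levels lay within 1.24-fold of each other.

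CALR, the soluble lectin chaperone calreticulin that also binds ER calcium, stood at 14.4, 19.6 and 4.30 CPM in the malathion libraries and 9.90, 70.4 and 66.3 CPM in the control libraries. Control replicates 2 and 3 were high and control replicate 1 was below malathion replicates 1 and 2, so the groups overlapped. Its fitted log2 fold change of −1.94 stayed between −2.42 and −1.52 when any 1 library was left out, and turned to 0.78 without control replicate 2 and both replicate 3 libraries. With TMM factors HYOU1 and CALR had unadjusted p of 0.0408 and 0.0422 (edgeR, adjusted p = 0.9998 for both), 2 of the 26 genes beside 3.59% of all tested genes. HSP90B1, the ER member of the HSP90 family, stood at 35.7, 57.9 and 0.898 CPM after malathion and 45.1, 60.9 and 1.70 CPM in controls. It was the only gene of the 26 that was lower in each malathion library than in the control library of the same number, beside 14.6% of all tested genes. Its log2 ratios of malathion to control (CPM plus 1) were −0.33, −0.071 and −0.51 in replicates 1, 2 and 3. The last rests on 38 counts after malathion and 50 in the control.

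The disulfide isomerases, which make and shuffle the disulfide bonds of secretory proteins, differed among themselves. PDIA4 stood at 325, 304 and 60.8 CPM in the malathion libraries and 325, 189 and 32.0 CPM in the control libraries. PDIA6, which also binds IRE1 and limits its signalling, stood at 343, 383 and 1.63 CPM after malathion and 383, 125 and 1.12 CPM in controls. Both were lower in control replicate 2 than in the other libraries of replicate numbers 1 and 2. They parted in the replicate 3 libraries, where PDIA4 kept a readable level and PDIA6 had at most 69 counts. PDIA3, the isomerase that works with calnexin and calreticulin on glycoproteins, stood at 72.8, 118 and 0.662 CPM after malathion and 105, 376 and 0.611 CPM in controls. Control replicate 2 held the most PDIA3 and the least PDIA4 and PDIA6 of the 4 libraries with replicate numbers 1 and 2. P4HB, the founding protein disulfide isomerase, was barely detected, at 1.32, 1.22 and 0 CPM after malathion and 1.12, 0.885 and 0 CPM in controls, or at most 34 counts.

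CRELD2 and MANF encode soluble ER proteins that are induced and secreted under ER stress. CRELD2 stood at 37.1, 39.6 and 0.165 CPM in the malathion libraries and 37.1, 14.5 and 0.136 CPM in the control libraries. The levels in malathion replicates 1 and 2 and control replicate 1 lay within 1.07-fold of each other. MANF, which binds BiP, stood at 303, 283 and 3.07 CPM after malathion and 282, 478 and 53.2 CPM in controls. The same 3 libraries lay within 1.07-fold for MANF too, and control replicate 2 was above them where for CRELD2 it was below. CRELD2 and PDIA4 were higher in the malathion library of each number, beside 6.80% of all tested genes, but in replicates 1 their levels were equal to 3 digits.

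Among the 5 matched genes of ER-associated degradation, 3 fitted fold changes were above 0 and 2 below. SYVN1 (ENSSSCG00000039740), the ubiquitin ligase HRD1 at the centre of the pathway, stood at 0.891, 0.576 and 0 CPM in the malathion libraries and 0.648, 16.6 and 0.0339 CPM in the control libraries. Control replicate 2 held 450 counts of it, and no other library more than 23. Its log2 fold change, the lowest of the list at −3.55 ± 2.77 (SE, adjusted p = 0.99998, edgeR), turned to 0.51 without control replicate 2. SEL1L, the adaptor that stabilises HRD1, did not share that pattern in size. It stood at 12.3, 12.5 and 26.4 CPM after malathion and 9.93, 26.9 and 8.42 CPM in controls, and its level in malathion replicate 3 was near that of control replicate 2. Its log2 fold change was 0.18, and it was −0.57 without both replicate 3 libraries.

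DERL2 (ENSSSCG00000031530), a rhomboid-like protein through which substrates leave the ER, stood at 57.8, 78.1 and 14.98 CPM in the malathion libraries and 60.6, 140 and 7.91 CPM in the control libraries. The log2 fold change was −0.47 ± 1.90 (SE, adjusted p = 0.99998, edgeR), 0.55 without control replicate 2 and 0.43 with TMM factors. EDEM1, which marks misfolded glycoproteins for disposal, was nearly level in replicates 1 and 2, at 12.9 and 12.5 CPM after malathion and 11.3 and 12.5 CPM in controls. In the replicate 3 libraries it stood at 0.614 CPM after malathion and 0.102 CPM in the control. HERPUD1, a stress-induced scaffold of the HRD1 complex, stood at 1.78, 1.22 and 0 CPM after malathion and 0.288, 1.44 and 0.373 CPM in controls, on at most 46 counts. It is one of the genes whose direction depends on scaling, with a log2 fold change of 0.51 on library totals and −1.12 with TMM factors.

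The libraries with equal replicate numbers were then set side by side, as log2 ratios of malathion to control (CPM plus 1). In replicates 1 the ratios of 20 of the 26 genes lay within 0.5 of 0 (76.9%, beside 71.6% of all tested genes), with a median of 0.02. The highest were HERPUD1 at 1.11 and HSPA5 at 0.96, and the lowest was XBP1 at −1.28. In replicates 2 the median was −0.59, beside −0.37 for all tested genes. There 19 of the 26 were lower after malathion, beside 6782 of the 10678 tested genes. In replicates 1 and in replicates 3, 15 of the 26 were higher (57.7%), beside 41.9% and 41.6% of all tested genes. In replicates 3 the ratios spread from −4.69 for CANX to 4.91 for HYOU1, with an SD of 1.87 over the 26 genes, against 0.49 in replicates 1 and 1.25 in replicates 2. The SD over all tested genes was 0.50, 1.23 and 1.62 in replicates 1, 2 and 3, so it rose outside the list too. Their 25th to 75th percentiles ran from −0.38 to 0.20, from −1.17 to 0.36 and from −0.20 to 0.25. The larger SD in replicates 3 thus reflects extreme genes, as 14 of the 26 and 66.3% of all tested genes lay within 0.5 of 0. A gene near 0 CPM in both libraries has a ratio near 0.

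**Figure D2:**
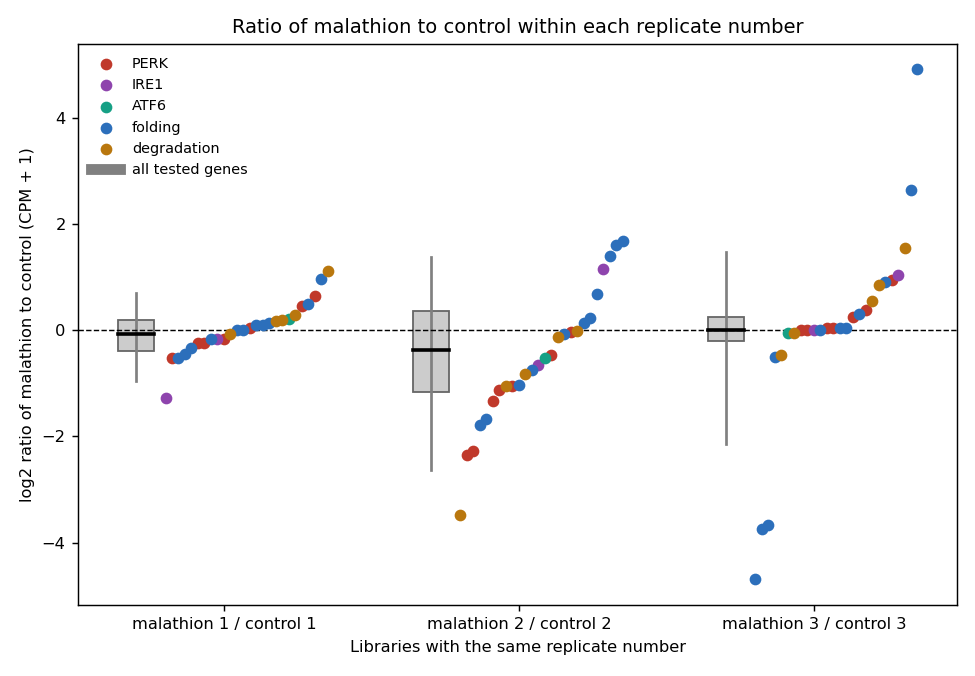
Log2 ratio of malathion to control (CPM + 1) within each replicate number, 1 point per gene in order of its value, beside all tested genes (box, 25th to 75th percentile with the median; line, 5th to 95th). The points are close to 0 in replicates 1, with an SD of 0.49, and spread from −4.69 to 4.91 in replicates 3.

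Control replicate 2 set many of the negative fold changes. It held the highest CPM for 16 of the 26 genes (61.5%), beside 54.7% of all tested genes. It exceeded each of malathion replicates 1 and 2 and control replicate 1 more than 2-fold for 10 of the 26 (38.5%, beside 28.6% of all tested genes): ATF3, PPP1R15B, TRIB3, ASNS, CHAC1, HSPA5, CALR, PDIA3, SEL1L and SYVN1. The excess over the highest of those 3 libraries was 18.6-fold for SYVN1, 7.39-fold for ATF3 and 4.20-fold for PPP1R15B. For HYOU1, PDIA4, PDIA6, P4HB and CRELD2 (19.2%, beside 24.6% of all tested genes) control replicate 2 was below all 3, at 0.672 of the highest of them for P4HB and 0.261 for HYOU1. Without control replicate 2, 23 of the 26 fitted fold changes were above 0 and the median was 0.56, beside 0.41 over all tested genes, and still none passed the test.

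**Figure D3:**
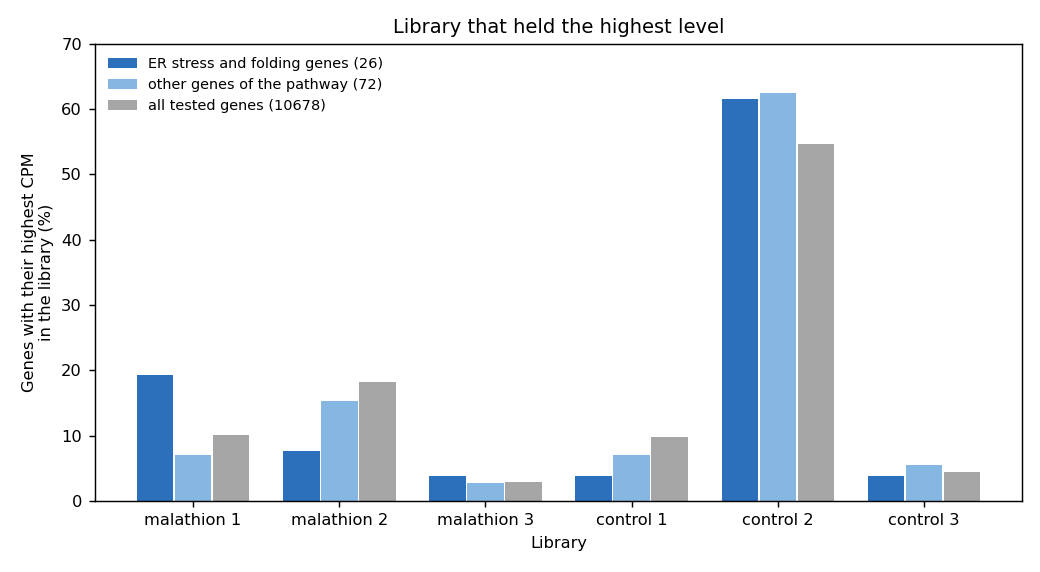
Percentage of genes whose highest CPM lay in each library, for the 26 ER stress and folding genes, 72 other genes of the pathway and all 10678 tested genes. Control replicate 2 holds the highest level for 61.5%, 62.5% and 54.7% of them.

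In the replicate 3 libraries the list differed little from genes in general. Malathion replicate 3 was below each of malathion replicates 1 and 2 and control replicate 1 for 23 of the 26 genes (88.5%, beside 90.6% of all tested genes). It was above all of them for HYOU1 and SEL1L (7.69%, beside 4.74%). Control replicate 3 was below those libraries for 23 of the 26 (88.5%, beside 89.1%), and above them for CALR and CANX (7.69%, beside 6.20%). The genes that stood out upward therefore differed between the replicate 3 libraries. Across the 26 genes, log2 CPM of malathion replicate 2 and control replicate 1 correlated at r = 0.985, and malathion replicate 3 and control replicate 3 at r = 0.821, beside 0.972 and 0.811 over the 10678 tested genes. The points share their library and its depth, so these values describe the libraries.

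**Figure D4:**
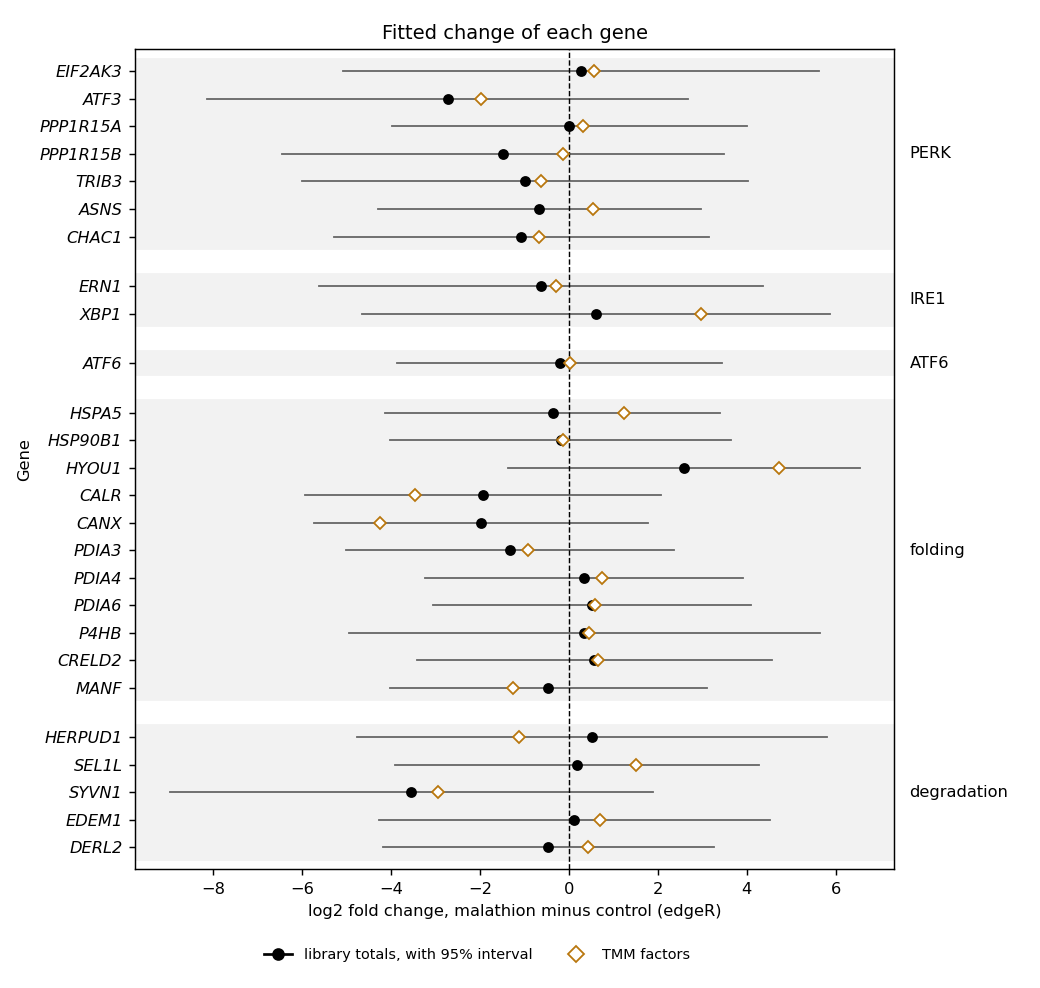
Fitted log2 fold change of each gene, malathion minus control, on library totals (black, with its 95% interval) and with TMM factors (open diamonds). Every interval includes 0, and the estimates run from −3.55 for SYVN1 to 2.59 for HYOU1 on library totals.

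A wider list of 94 other genes of the same pathways was described in the same fit. Of these, 89 were matched and 72 had enough counts to be tested. The fold change was above 0 for 21 and below 0 for 51, with a median of −0.38 beside −0.33 over all tested genes, and 0 passed the test (1 had an unadjusted p under 0.05). That gene was EIF2B2 (ENSSSCG00000002377), a subunit of the exchange factor on which eIF2 phosphorylation acts, with a log2 fold change of −5.77 ± 2.54 (SE, adjusted p = 0.99998, edgeR). It had 0, 42 and 17 counts in malathion replicates 1, 2 and 3, and 39, 2800 and 2 counts in control replicates 1, 2 and 3. SELENOS, a selenoprotein that anchors the ATPase p97 at the ER, stood at 4.84, 9.33 and 0.189 CPM after malathion and 4.53, 236 and 0.271 CPM in controls. Both were high in control replicate 2 alone. UBE2J1, the membrane-bound ubiquitin-conjugating enzyme of ER degradation, stood at no more than 0.194 CPM after malathion and at 0.576, 6.01 and 0.814 CPM in controls. Its groups did not overlap, on 5, 4 and 1 counts after malathion, beside 0.506% of all tested genes with every malathion level under every control level.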

How the data were processed

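RNA-seq counts of 6 libraries were used, 3 malathion and 3 control. Per the labels' protocols, RNA was amplified by a modified Smart-seq2 method. The deposited files hold read counts per Ensembl gene, not normalized. The submitters' processing notes name STAR 2.5.3a, HTSeq 0.9.1 and DESeq2 1.20.0. Their roles, the genome build, annotation and strand setting are not given in the sources used here, so reads of overlapping or antisense genes may be mixed and no coordinates are printed. The 5 rows of reads given to no gene (36.7% to 42.6% of a file) were left out.

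Counts were compared with edgeR 4.0.16 in R 4.3.3 (limma 3.58.1): quasi-likelihood F test, two-sided, library totals as scaling, filterByExpr (minimum count 10, minimum total 15), and Benjamini-Hochberg adjustment over 10678 genes at 0.05. All 26 matched genes passed the filter. Library totals, not TMM factors (0.138 to 3.57), were the main scaling because levels are given on them. Alternatives were TMM, DESeq2 1.42.0, no filter, a replicate block and omitted libraries. Scripts were tested on simulated data with far less spread between replicates than these libraries, so the check does not cover this spread. Same-numbered libraries deviated together from their group means (r = 0.467, 0.378 and 0.587 across genes for numbers 1, 2 and 3). The numbers were used as pairs only in the comparisons by number and in the replicate block, and the main fit was unpaired. Malathion replicate 2 correlated more with control replicate 1 (r = 0.439) than with its own number, and malathion replicate 1 with control replicate 2 at 0.261. The meaning of the numbers is not given in the labels.

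The genes and lists were chosen with earlier results of these data known. Full statistics went, in each arm, to the 2 genes of smallest p (1 for ATF6, its only gene). Of the wider list's 4 genes with the smallest p, 3 were named and 1 is not reported here. The other genes of the 26 are given by level, and HSPA5, CALR, SEL1L and HERPUD1 also by fold changes, chosen after their values were seen.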

Additional observations from a re-analysis of the deposited data

How the results depend on the processing

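None of the 26 genes passed under the 12 alternatives run (TMM, DESeq2, no filter on low counts, the replicate block, 6 with 1 library left out and 2 with several left out), and neither did any other tested gene. DESeq2 gave no p for 1119 genes, HYOU1, CALR, CANX, SEL1L and SYVN1 among them, so these could not pass there. Signs were less stable. The median of the 26 genes was −0.29 on library totals, 0.17 with TMM factors, 0.11 with DESeq2, 0.18 without control replicate 2 and both replicate 3 libraries, and −0.85 to 0.56 when 1 library was left out. The sign of the fold change turned for 22 of the 26 genes in at least 1 fit without 1 library, 12 of them without control replicate 2; ATF3, HYOU1, CALR and CANX kept it. The ranges were EIF2AK3 (−1.28 to 1.29), PPP1R15A (−0.58 to 0.59), PPP1R15B (−2.17 to 0.83), TRIB3 (−1.995 to 0.64), ASNS (−1.18 to 0.69) and CHAC1 (−1.95 to 0.61). For others they were ERN1 (−1.79 to 0.92), XBP1 (−0.40 to 2.09), ATF6 (−0.71 to 0.53), HSPA5 (−0.95 to 1.76), HSP90B1 (−0.97 to 0.43) and PDIA3 (−2.13 to 0.27). Further ranges were PDIA4 (−0.16 to 1.06), PDIA6 (−0.070 to 1.94), P4HB (−0.24 to 0.93), CRELD2 (−0.0082 to 1.81), MANF (−0.95 to 0.23) and HERPUD1 (−0.20 to 1.59). The remaining ranges were SEL1L (−0.28 to 0.90), SYVN1 (−4.31 to 0.51), EDEM1 (−0.46 to 0.67) and DERL2 (−0.996 to 0.55).

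With TMM factors the sign differed from that on library totals for ASNS 0.54, ATF6 0.018, HSPA5 1.24, HERPUD1 −1.12 and DERL2 0.43. DESeq2 gave ASNS 0.51, HSPA5 1.24, HERPUD1 −1.35 and DERL2 0.41, and the replicate block, which changed no call, gave PPP1R15B 0.33, HSPA5 1.10, HERPUD1 −0.38 and DERL2 0.000196. Without both replicate 3 libraries the values were CANX 0.11 and SEL1L −0.57. Without these and control replicate 2, 17 signs differed, with PPP1R15B 0.33, TRIB3 0.22, ASNS 0.35, CHAC1 0.19, ERN1 0.51, XBP1 −0.47, ATF6 0.25 and HSPA5 1.27. The others there were HSP90B1 0.055, HYOU1 −0.29, CALR 0.78, CANX 0.20, PDIA4 −0.048, PDIA6 −0.081, MANF 0.053, SYVN1 0.18 and DERL2 0.17. Beyond the omitted libraries themselves, the cause was not tested. Counts were lowest for EIF2AK3, P4HB and HERPUD1, at no more than 46 in any library.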
